A study of Caenorhabditis elegans with 2 samples.

Results

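The genes examined here are 33 acetylcholine receptor and channel genes of Caenorhabditis elegans, among 19973 nuclear protein-coding genes in the annotation. They were chosen by name and function: 26 encode nicotinic-type subunits, 3 encode muscarinic receptors and 4 encode acetylcholine-gated chloride channel subunits. Each gene was read as a locus, its gene body plus 5000 bp upstream, and every UNC-3 peak summit in that locus was scored. Binding was profiled by ChIP-seq (sequencing of immunoprecipitated chromatin) in late embryos, taken whole, of the hermaphrodite strain OP578, whose genotype is unc-119(tm4063) III; wgIs578. In this strain an integrated transgene supplies UNC-3 with GFP and FLAG at its C terminus, in the unc-119 mutant background. Sonicated chromatin was precipitated with antibody against GFP in 2 biological replicates of 1 group, 4 h after bleaching of eggs to synchronize them. Both replicates carry the same transgenic line and there is no second group, so no contrast between conditions exists. A summit in whole embryos cannot be assigned to a cell type.

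UNC-3 is a transcription factor of the COE family, named after Collier, Olf and EBF, whose members bind a palindrome as dimers. It is known for maintaining the identity of cholinergic motor neurons, where it activates genes that make, package and sense acetylcholine. Nicotinic receptors are pentameric cation channels that excite muscle and neurons, muscarinic receptors act through G proteins, and nematodes also have inhibitory chloride channels opened by acetylcholine.

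The deposited lists come in 4 kinds, and signal means the value that the authors' caller attached to a peak. The list thresholded by the irreproducible discovery rate (IDR), a measure of agreement between replicates, held 754 peaks with signals from 60.2 to 996.8. The pooled list, called on both replicates together, held 15515 peaks from 20.1 to 996.8, and the IDR peaks were its 754 strongest. Separate calls gave 20517 peaks for replicate 1 and 21474 for replicate 2. The pooled list and both replicate lists keep background peaks in, as input for IDR. Rank 1 is the strongest peak of a list. Signal scales differ between lists, so values are compared only within a list, and read depth is unknown.

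The sequence searched at the summits is the COE palindrome TCCCNNGGGA, which reads the same on both strands. A summit was counted as carrying it when the centre of a match lay within 100 bp. The match was present at 0.826% of all nuclear pooled summits and at 0.129% of windows of the same length centred 1000 bp to either side of them. The acc-4 and gar-2 stretches below run from the summit to an exact match, with 20 more bases at each end, on the plus strand of ce11. They are shown because they join the receptor loci to this motif, and the capitals mark the match.
acc-4: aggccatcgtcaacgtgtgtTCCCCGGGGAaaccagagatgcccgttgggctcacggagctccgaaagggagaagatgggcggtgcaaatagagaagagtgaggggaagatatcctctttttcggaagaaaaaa
gar-2: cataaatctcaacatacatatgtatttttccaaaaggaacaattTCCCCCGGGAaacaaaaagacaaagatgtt
The acc-4 stretch covers chrIII:13484481-13484614 and lies in intergenic sequence upstream of the gene. The gar-2 stretch covers chrIII:6315749-6315822 and lies in an intron of gar-2.

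Sites with 7 of the 8 fixed letters of the palindrome lay near summits of gar-3 and acr-14, and the capitals mark those 10-base sites. They are shown because gar-3 and acr-14 had the next strongest summits among the receptor genes after acr-18 and acc-4.
gar-3, stronger summit: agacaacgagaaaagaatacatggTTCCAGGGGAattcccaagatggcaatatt
gar-3, weaker summit: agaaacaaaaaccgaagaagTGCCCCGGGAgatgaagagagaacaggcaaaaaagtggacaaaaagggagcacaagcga
acr-14: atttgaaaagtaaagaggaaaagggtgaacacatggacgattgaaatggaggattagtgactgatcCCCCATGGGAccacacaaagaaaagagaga
The gar-3 stretches are chrV:14578203-14578256 and chrV:14571829-14571907, both in introns of gar-3, and the acr-14 stretch is chrII:8177211-8177306 at the start of that gene. Such looser matches were found at 4.76% of all nuclear pooled summits, and at 2.51% of the windows 1000 bp to either side of them.

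At the receptor locus with the highest signal, acr-18, both stronger pooled summits lay inside tRNA genes in introns. Windows reaching 50 bases to either side of these summits are shown with the tRNA gene in capitals, which fills the second window only in part.
acr-18, stronger summit: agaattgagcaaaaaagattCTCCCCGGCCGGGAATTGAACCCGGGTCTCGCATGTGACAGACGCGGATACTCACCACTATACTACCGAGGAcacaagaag
acr-18, weaker summit: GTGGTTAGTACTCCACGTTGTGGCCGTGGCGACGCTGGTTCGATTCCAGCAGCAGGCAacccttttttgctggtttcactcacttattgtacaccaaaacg
The first window is chrV:15551779-15551879, and its tRNA gene runs from chrV:15551799-15551870. The second window is chrV:15554044-15554144, and its tRNA gene runs from chrV:15554030-15554101.

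For contrast, the strongest pooled summits of acr-2, acr-9 and acr-12 are shown with 50 bases to either side. None had a site with 7 or more of the fixed letters within 100 bp. A replicate 2 summit of acr-2, 38 bp from the pooled one, did have a site with 7 of them within 100 bp.
acr-2: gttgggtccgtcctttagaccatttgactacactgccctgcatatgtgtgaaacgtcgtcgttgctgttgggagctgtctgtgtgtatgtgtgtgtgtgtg
acr-9: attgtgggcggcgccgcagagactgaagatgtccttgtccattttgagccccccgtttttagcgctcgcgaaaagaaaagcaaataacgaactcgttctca
acr-12: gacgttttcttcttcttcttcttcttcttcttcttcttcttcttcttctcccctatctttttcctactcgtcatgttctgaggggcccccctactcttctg
These are chrX:6702284-6702384, chrX:13646916-13647016 and chrX:13532744-13532844, all intergenic.

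Across the receptor genes, weak summits were common and strong ones were few. An IDR summit lay in 2 of the 33 loci, acr-18 and acc-4, which is 6.06% with an exact 95% interval of 0.743% to 20.2%, beside 6.36% of all protein-coding loci. A pooled summit lay in 24 of 33 loci, or 72.7% (54.5% to 86.7%), beside 60.4% of all loci. A replicate 1 summit lay in 23 loci, 69.7% beside 71.9%, and a replicate 2 summit in 24 loci, 72.7% beside 71.7%. For the IDR and replicate lists the share over the receptor genes was therefore near that of all genes, and for the pooled list it was higher. Intervals cover counting error only and treat the genes as independent draws. The list was drawn up with earlier results known and some loci overlap, so the intervals are no test against the background.

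The receptor loci were longer than most, with a median of 9.59 kb and a range of 7.26 to 19.9 kb, against a median of 7.03 kb over all genes. Per 10 kb of locus the receptor genes held 1.26 pooled summits, below the 1.53 over all genes. The same held in the replicate lists, with 1.5 against 2.01 per 10 kb in replicate 1 and 1.74 against 2.12 in replicate 2. The signal of the strongest pooled summit had a median of 26.0 over the 24 loci with one and ran from 20.5 to 86.5, while its median over all genes with a summit was 28.5. A pooled summit from the strongest 20% of that list was present in 6 loci (18.2%), beside 20.3% of all loci. These 6 were acr-18, acc-4, gar-3, acr-14, acr-21 and acr-9.

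**Figure D1:**
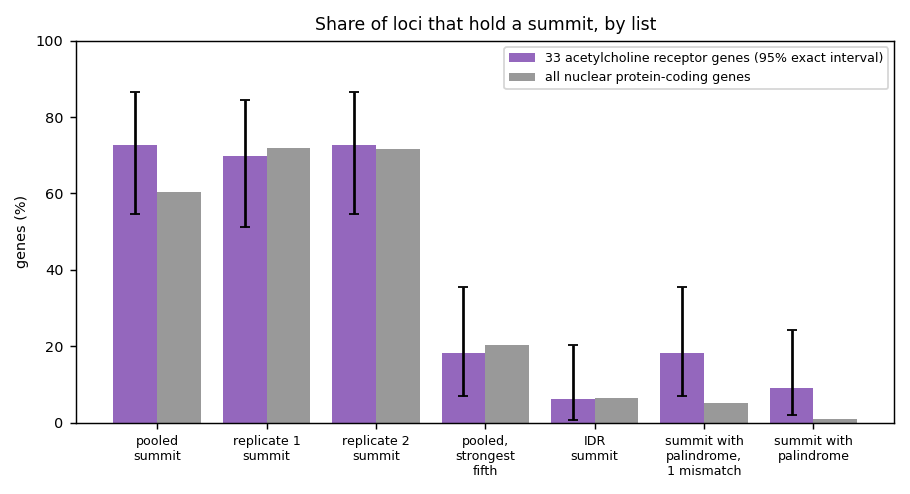
Percentage of loci that hold a summit of each kind, for the 33 receptor genes (purple, with exact 95% binomial intervals) and for all 19973 nuclear protein-coding genes (grey). The pairs are close for the IDR and replicate lists, and the receptor bar is higher for summits with the palindrome, 9.09% against 0.861%.

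The palindrome was found at a pooled summit in 3 of 33 loci, those of acr-6, gar-2 and acc-4, or 9.09% with an exact 95% interval of 1.92% to 24.3%. Over all genes the share was 0.861%. With 1 mismatch allowed, 6 loci held such a summit, which also counts unc-29, acr-14 and gar-3, or 18.2% (6.98% to 35.5%) beside 5.09% of all loci. The list of genes was drawn up with earlier results of these data known, so these differences from the background are a description and carry no test.

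The palindrome occurred anywhere in the sequence of 3 receptor loci, 9.09% beside 2.8% of all loci, at 0.902 per 100 kb of locus against 0.36. All 3 palindromes had a pooled summit within 100 bp, against 33.3% of the 390 palindromes on the nuclear chromosomes. Among the 42 distinct pooled summits of the receptor loci 3 carried it, or 7.14%, beside 0.826% of all nuclear pooled summits. None of the 84 windows 1000 bp to either side of the receptor summits did, beside 0.129% of such windows over all nuclear pooled summits. At so low a share, 84 windows are too few for that absence to be set against the summits. Sites with at most 1 mismatch were present at 7 of the 42 summits (16.7%) and in 4 of the 84 flanking windows (4.76%).

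The palindromes at acc-4, gar-2 and acr-6 differed in position and in the strength of the summit beside them. At acc-4 the match chrIII:13484501-13484510 lay 381 bp upstream of the gene start, 88.5 bp from the pooled summit. It was 90.5 bp from the replicate 1 summit and 103.5 bp from that of replicate 2. At gar-2 the match chrIII:6315793-6315802 lay 28.5 bp from a pooled summit of signal 24.8, rank 8542, which is close to the pooled median of 25.5. A replicate 2 summit of signal 13.5, rank 10803, lay 72.5 bp from it, and the nearest replicate 1 summit lay 244.5 bp away. At acr-6, which encodes an alpha-type nicotinic subunit of the UNC-38 group, the match chrI:4359604-4359613 lay in coding sequence 48.5 bp from a pooled summit of signal 26.0, rank 7317. Replicate 2 had a summit 49.5 bp from this match with signal 20.6, rank 2820, whereas the nearest replicate 1 summit was 5830.5 bp away. Of the 3 matches, only that of acc-4 had summits of both replicates at nearly the same distance.

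**Figure D2:**
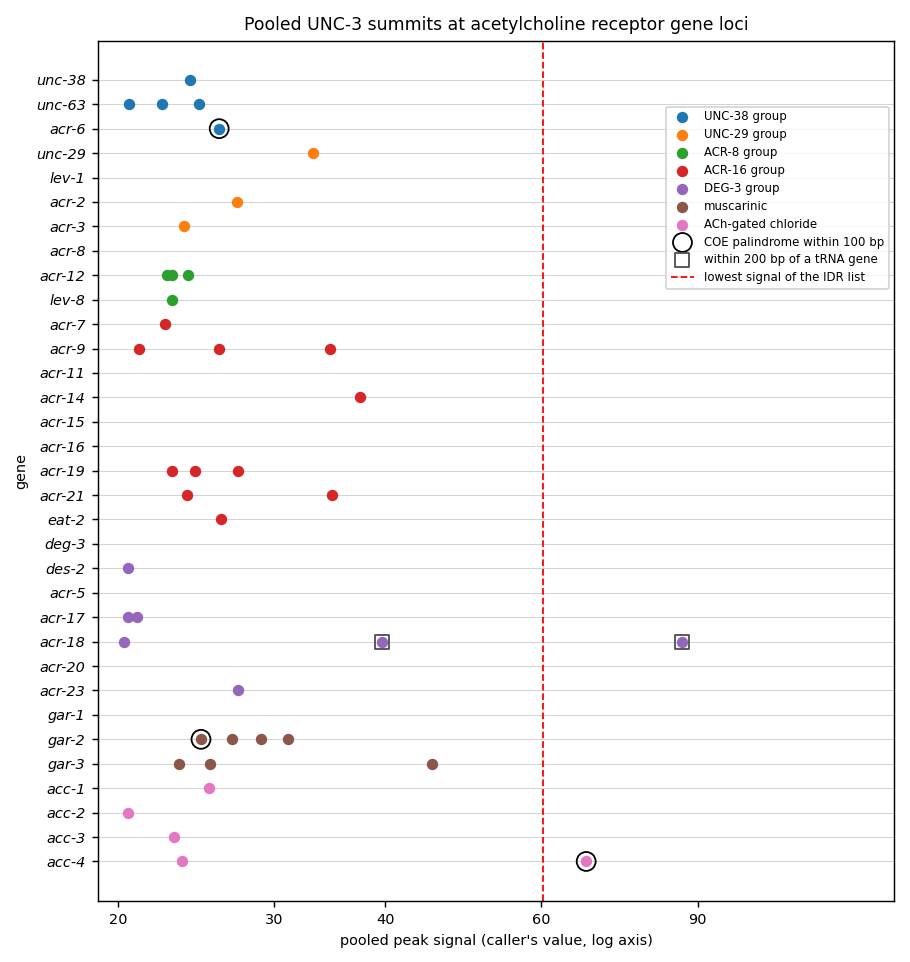
Signal of every pooled summit in each receptor locus, on a log axis, coloured by gene family. Of the 42 summits, those at 86.5 (acr-18) and 67.4 (acc-4) lie above the lowest IDR signal of 60.2 (red line); circles mark summits with the palindrome and squares those near a tRNA gene.

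Nicotinic subunits of the levamisole receptor, the main excitatory receptor of body wall muscle, had no IDR summit, and unc-29 had the strongest pooled summit among them. In the UNC-38 group all 3 genes had a pooled summit, beside 60.4% of all loci, with strongest signals of 24.1 to 26.0. The families hold 3 to 9 genes each, too few for their counts to be set apart from that share. unc-38, an alpha subunit needed for levamisole sensitivity, had 1 pooled summit of signal 24.1, 1797 bp upstream in the coding sequence of icmt-1 and nearest to the start of F21F3.2. unc-63, a further alpha subunit, had 3 pooled summits of 24.7, 22.4 and 20.6. The stronger pair lay 558 and 357 bp upstream and nearest to the start of unc-63, and the weakest lay in the coding sequence of tyms-1.

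In the UNC-29 group of non-alpha subunits, 3 of 4 genes had a pooled summit and none had an IDR summit, beside 60.4% and 6.36% of all loci. unc-29, a non-alpha subunit of the levamisole receptor, had 1 pooled summit of signal 33.2, rank 3279, in its own intron 566 bp past its start. Replicate 2 had a summit 9 bp away with signal 29.8, rank 1048, and replicate 1 had none anywhere in the locus. lev-1, the other non-alpha subunit of that receptor, had no pooled summit, 1 replicate 1 summit of signal 17.4 and 1 replicate 2 summit of 10.7.

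acr-2 and acr-3 encode subunits of a receptor that acts in cholinergic motor neurons, and their loci overlap and share replicate summits. The acr-2 summit printed above had a pooled signal of 27.2, rank 6226, 215 bp upstream of the start. Replicate 2 had a summit 38 bp from it with signal 15.1, rank 7792, and replicate 1 had none within 100 bp. acr-3 had 1 pooled summit of signal 23.7 in its coding sequence, with no summit of either replicate within 100 bp. Neither pooled summit thus had summits of both replicates beside it.

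The ACR-8 group showed low signals in all its genes. acr-12, a subunit of receptors in motor neurons, had 3 pooled summits of 24.0, 23 and 22.7, the strongest of them 59 bp upstream of its start. lev-8, a subunit of the levamisole receptor, had 1 pooled summit of 23, 976 bp upstream, and no summit in either replicate list. acr-8 had no pooled summit and 1 replicate 1 summit of signal 11, close to the lowest signal of that list, 10.8.

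In the ACR-16 group, related to vertebrate alpha7 subunits, 6 of 9 genes had a pooled summit, beside 60.4% of all loci. Their strongest signals had a median of 31.0. acr-14 had 1 pooled summit of signal 37.5, rank 2238, 36 bp upstream of its start. Replicate 2 had a summit 1 bp away with signal 25.9, rank 1429. Replicate 1 had one 46 bp away with signal 11.8, rank 16476. Both replicates had a summit there, but its place in the list was high in replicate 2 and low in replicate 1.

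acr-21 had a pooled summit of signal 34.8, rank 2805, in an intron 1302 bp past the gene start. It also lay within 500 bp upstream of another annotated start of acr-21. The replicate 1 summit at the same base had signal 19.3, rank 3177, and that of replicate 2, 46 bp away, had 15.8, rank 6682. acr-9 had 3 pooled summits, the strongest of signal 34.7, rank 2859, 68 bp upstream of the start. A replicate 1 summit of signal 24.5, rank 1369, lay 28 bp from it, and no replicate 2 summit lay within 100 bp. The strongest summit was thus placed alike in both replicates at acr-21, and had a partner in replicate 1 alone at acr-9. A weaker acr-9 summit of signal 26.0, rank 7273, 3587 bp upstream and nearest to C40C9.4, did have summits of both replicates within 100 bp, of signal 12 (rank 15778) in replicate 1 and 11.5 (rank 16687) in replicate 2.

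acr-19 had 3 pooled summits of 27.3, 24.4 and 23. The strongest, rank 6128, lay 2645 bp upstream and nearest to the start of C31H5.7, with a replicate 2 summit of signal 18.7, rank 3860, 2 bp away. eat-2, which acts in pharyngeal muscle to set the rate of pumping, had 1 pooled summit of signal 26.1 in an intron, and acr-7 had 1 of 22.6 nearest to T09A5.5. acr-16, the subunit of the levamisole-insensitive receptor of body wall muscle, had no pooled summit, no replicate 1 summit and 4 replicate 2 summits of at most 13.5. acr-15 had replicate 1 summits alone, at most 12.5, and acr-11 had no summit in any list.

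The DEG-3 group, which is found in nematodes, held the highest receptor signal. Of its 7 genes 4 had a pooled summit and 1 had an IDR summit, beside 60.4% and 6.36% of all loci. The acr-18 IDR summit had a pooled signal of 86.5, rank 356 of 15515, 7318 bp past the gene start. Replicate 1 had a summit 8 bp away with signal 48.5, rank 252, and replicate 2 one at the same base with signal 37.8, rank 600. It was the strongest summit of any receptor locus in the pooled list, and it lay inside a tRNA gene, with glb-14 holding the nearest protein-coding start.

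A further pooled summit of acr-18, signal 39.7, rank 1942, also lay inside a tRNA gene, with a replicate 2 summit of 28.4, rank 1149, within 100 bp and none of replicate 1. Over the nuclear lists, 17.8% of IDR summits and 2.26% of pooled summits lay within 200 bp of a tRNA gene. The part of the tRNA genes in the acr-18 signal was not tested. With summits near small RNA genes left out, the strongest pooled summit of acr-18 had a signal of 20.3, rank 15005.

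deg-3 and des-2, which form a choline-sensitive channel and are transcribed together, have overlapping loci. deg-3 had no summit in any list, and des-2 had 1 pooled summit of signal 20.5, 3189 bp upstream and nearest to T26H10.2. acr-23, the betaine receptor subunit, had 1 pooled summit of signal 27.3, rank 6141, in an intron 3110 bp past its start. Replicate 2 had a summit 13 bp away with signal 21.1, rank 2604, and replicate 1 had none in the locus. acr-17 had 2 pooled summits of 21 and 20.5, acr-20 had replicate summits of 12.2 and 13.1 only, and acr-5, a marker of B-type cholinergic motor neurons, had none in any list.

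Muscarinic receptors had the highest median of the strongest pooled signal among the families, 38.2, although over only the 2 of 3 genes with a summit, in long loci. gar-3, a muscarinic receptor that acts in pharyngeal muscle and in motor neurons, had pooled summits of 45.2, 25.4 and 23.4, all in introns. Its strongest, rank 1412, lay 1496 bp past the start. Replicate 2 had a summit 1 bp away with signal 22.9, rank 1999, and replicate 1 one 62 bp away with signal 19.3, rank 3199. The site with 1 mismatch shown above was centred 8.5 bp from the pooled summit.

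gar-2, a muscarinic receptor that inhibits acetylcholine release from motor neurons, had 4 pooled summits in introns, of 31.1, 29.0, 26.9 and 24.8. At the strongest, rank 4039, replicate 1 had a summit 3 bp away with signal 23.5, rank 1568, and replicate 2 had none within 100 bp. The summit with the palindrome was the weakest of the 4. gar-1 had no pooled summit and 1 replicate 1 summit of signal 12.

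All 4 genes of acetylcholine-gated chloride channel subunits had a pooled summit, beside 60.4% of all loci. Their strongest signals were 67.4 in acc-4, 25.3 in acc-1, 23.1 in acc-3 and 20.5 in acc-2. The acc-4 summit, rank 592, was on the IDR list and lay 470 bp upstream of the start, intergenic and nearest to acc-4 itself. Replicate 1 had a summit 2 bp away with signal 29.7, rank 825, and replicate 2 one 15 bp away with signal 38.6, rank 566. It was the only receptor summit that was on the IDR list, nearest to its own gene and beside an exact palindrome. The acc-1 summit lay in an intron, while those of acc-2 and acc-3 lay 4761 and 3373 bp upstream, nearest to C53D6.11 and aman-1.

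**Figure D3:**
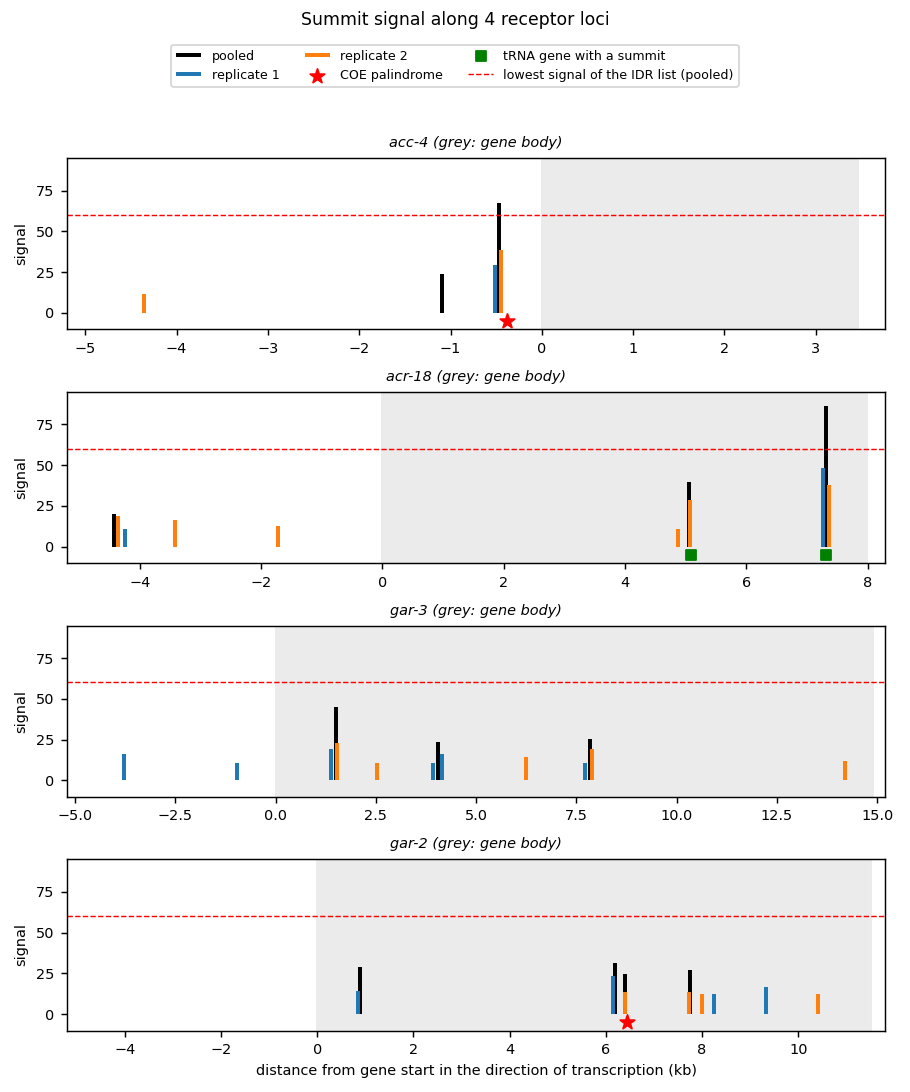
Signal of pooled, replicate 1 and replicate 2 summits along the acc-4, acr-18, gar-3 and gar-2 loci, in kb from the gene start, with replicate lines moved 0.04 kb aside so that they can be seen. The strongest pooled summits of acc-4 and acr-18 pass the lowest IDR signal (red line), which applies to pooled signals only and not to the replicate lines. The palindromes (stars) lie beside summits of acc-4 and gar-2.

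Summits of the receptor loci fell into introns and intergenic sequence in shares near those of the whole pooled list. Of the 42 pooled summits in the receptor loci, 18 were in introns (42.9%, beside 38.3% of all nuclear pooled summits), 17 were intergenic (40.5%, beside 44.3%) and 6 were in coding sequence (14.3%, beside 11.6%). Relative to the receptor genes, 20 lay upstream and 22 in the gene body, and 12 lay within 500 bp of an annotated start of the receptor gene. The nearest protein-coding start was that of a receptor gene for 30 of the 42. No share over all genes is given for these counts of position and nearest start, so they only describe the loci. In 19 of the 33 genes at least 1 pooled summit was nearest to the gene's own start, beside 38% of all genes. The receptor loci were longer, with a median of 9.59 kb against 7.03 kb, and that share is not adjusted for length. Although they had a pooled summit, unc-38, acr-7, des-2, acc-2 and acc-3 had none nearest to their own start.

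**Figure D4:**
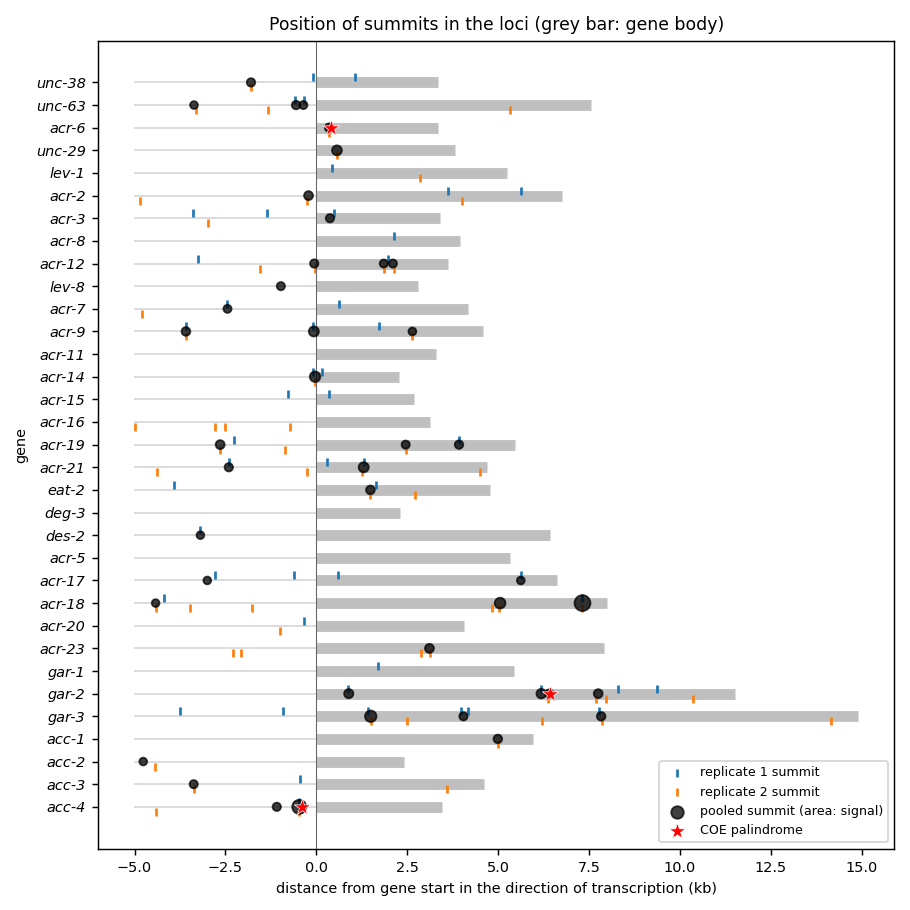
Position of every summit relative to the gene start, in kb along the direction of transcription, with gene bodies as grey bars and 5 kb upstream as lines. Pooled summits are black with area proportional to signal, ticks are replicate summits and stars are palindromes; the large circle of acr-18 lies late in the gene body, and that of acc-4 lies just upstream.

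The replicates gave the same position for few of the strongest summits. Of the 24 genes with a pooled summit, 5 had summits of both replicates within 100 bp of the strongest, which is 20.8% beside 38.9% of the 12057 genes with a pooled summit. These 5 were acr-14, acr-18, acr-21, gar-3 and acc-4. In 6 genes only replicate 1 had one, in 10 only replicate 2, and in lev-8, acr-3 and acc-2 neither did. By single summits, 7 of the 42 (16.7%) lay near both, beside 27.3% of all nuclear pooled peaks; they are these 5 and a weaker summit each of acr-9 and gar-3.

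**Figure D5:**
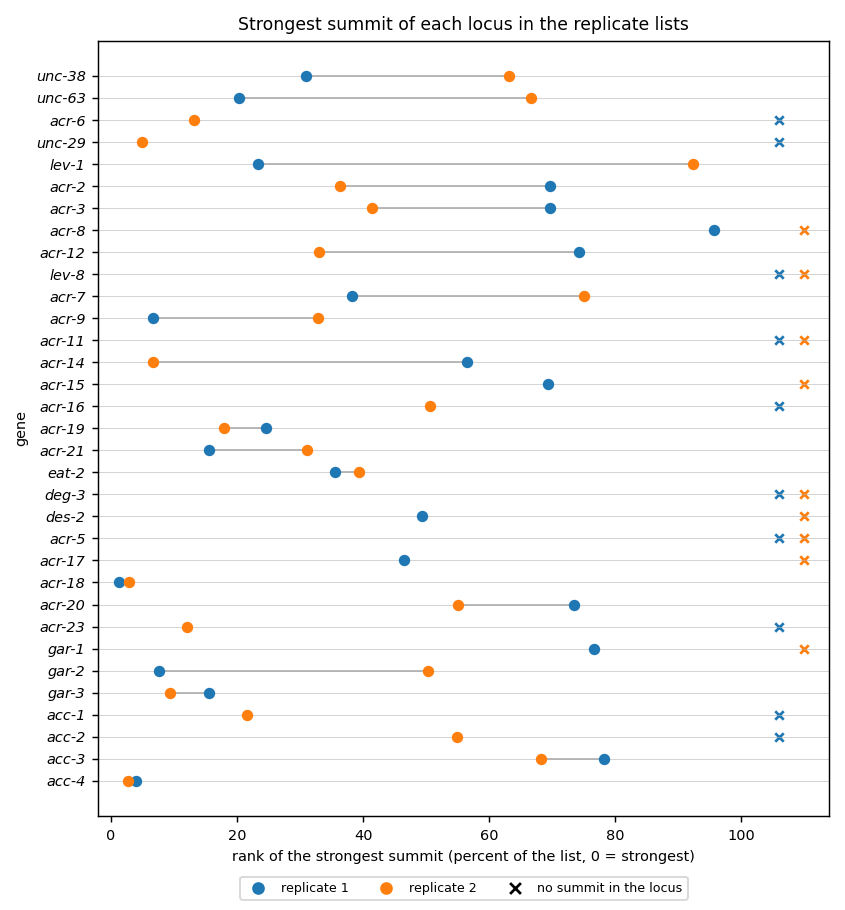
Rank of the strongest summit of each receptor locus in the replicate 1 and replicate 2 lists, as a percent of the list, with crosses for loci without a summit. Lines join the replicates of a locus, whose strongest summits can lie at different sites. At acr-9 they lie 96 bp upstream in replicate 1 and 2634 bp past the start in replicate 2. acr-18 and acc-4 lie near the top of both lists, whereas unc-29 is high in replicate 2 and has no replicate 1 summit.

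No pooled summit was found for 9 genes: lev-1, acr-5, acr-8, acr-11, acr-15, acr-16, acr-20, deg-3 and gar-1. Of these 6 had a summit in at least 1 replicate list, and acr-5, acr-11 and deg-3 had none in any list. Absence from a list does not show absence of binding, since the depth is unknown and whole embryos were used.

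Other genes of the pathway were counted in the same way. Of 14 matched genes for assembly, trafficking and clustering, 13 had a pooled summit, 92.9% beside 60.4% of all protein-coding loci, and 4 had an IDR summit, 28.6% beside 6.36%. Of 6 matched further channel subunits, 5 had a pooled summit, 83.3% beside the same 60.4%, and 1 an IDR summit, 16.7% beside 6.36%. These loci too were longer than most, with medians of 9.89 and 10.4 kb against 7.03 kb. Per 10 kb they held 3.24 and 2.12 pooled summits, with shared summits counted once per locus, against 1.53 over all genes. The lists were drawn up with earlier results known and are small, so these shares are a description with no test. The 5 with an IDR summit are named for their values: lev-9, an extracellular clustering scaffold, with a signal of 185.6 near a tRNA gene, lin-17, a Wnt receptor, with 67.8, lgc-46, an acetylcholine-gated chloride channel subunit, with 64.0, and eat-18 and lev-10, which share a summit of 60.2 at the lower end of the IDR list.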

How the data were processed

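Per the labels, UNC-3 tagged with GFP was precipitated from intact late embryos, 2 biological replicates making up 1 group. Per the file headers, replicate lists hold peaks with background as input for IDR, called against a control alignment. The pooled list, called on both replicates, likewise holds peaks with background as input for IDR. The signal of each peak (column 7) was deposited by the authors as their caller's strength value. The aligner, the caller and its parameters, the IDR threshold and the handling of repeated sequence were not given in the sources used here. The control was not analysed here, so control signal was not separated. Depth is unknown.

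The 4 ce11 lists were used, the ce10 lists were not. Genes and sequence are WBcel235 (ce11), Ensembl release 115, and coordinates are 1-based. A locus was a gene body plus 5000 bp upstream on its strand, a summit counted when inside, and overlapping loci can share summits. The same rule over 19973 nuclear protein-coding genes gave the background. Replicate summits within 100 bp of a pooled summit counted as near, palindromes when centred within 100 bp, and tRNA, snoRNA and snRNA genes within 200 bp. Intervals are Clopper-Pearson at 95%. With 1 group, no test was made.

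Members, families and pathway lists were chosen with earlier results of these data known. Genes described in full were those with an IDR summit, the 10 with the highest pooled signal, those with a palindrome at a pooled summit, and those with no pooled summit. Alternatives covered the locus, assignment, overlap, thresholds, distances and each replicate alone. The counting was tested on simulated peaks. Python 3.11.15, numpy 2.4.6, pandas 2.3.3, scipy 1.17.1 and matplotlib 3.10.9 were used.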

Additional observations from a re-analysis of the deposited data

How the results depend on the processing

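Of 44 alternative values for 6 results, 24 stayed within 1.5 times the count or, for the median, equal, and 20 moved. The IDR count of 2 fell to 1 with the gene body only and with the nearest start. It also fell to 1 without summits near small RNA genes and with signal above the IDR median. With a replicate left out no IDR list exists, so the strong end of the remaining replicate list was counted. That gave 2 loci without replicate 1, beside 6.11% of all genes, and 1 without replicate 2, beside 6.25%. In replicate 1, acr-18 ranked 252 and acc-4 825. The pooled count of 24 became 14 with the gene body only, 13 in the stronger 50% of the list and 6 in the strongest 20%. The median of the strongest signal, 26.0 against 28.5 over all genes, was 26.6 against 27.9 with 2000 bp upstream. It was 27.2 against 29.9 with 10000 bp upstream and 25.6 against 28.0 without small RNA genes. The gap was small by nearest start, 27.2 against 27.3, and with the gene body only, 26.0 against 26.2. The median rank of the strongest summit was 7260, against 5380 over all genes. In the replicate lists, an alternative chosen after seeing the data, the median signal was 15.1 to 15.3, against 15.9 over all genes. Genes with both replicates near the strongest summit numbered 4 within 50 bp, 7 within 200 bp and 8 by any overlap of peaks. In the stronger 50% of each replicate list they numbered 4. These alternatives have no share over all genes beside them, since the 38.9% holds for 100 bp only. Genes with a palindrome at a summit numbered 6 with 1 mismatch, beside 5.09% of all genes, and 1 at IDR summits, beside 0.24%. Replicate 1 alone kept only acc-4, beside 0.641% of all genes. Replicate 2 alone kept acr-6 and gar-2, beside 1.0%, and lost acc-4, whose replicate 2 summit lay 103.5 bp from the match. Palindromes anywhere in the locus gave 26 of the 33 genes with 1 mismatch, beside 56.8% of all genes. The shares over all genes fell with the same restrictions. That for the IDR count, 6.36%, became 1.08% with the gene body only and 3.0% with the nearest start. It was 5.01% without summits near small RNA genes and 3.42% with signal above the IDR median. That for the pooled count, 60.4%, became 24.7% with the gene body only, 39.0% in the stronger 50% and 20.3% in the strongest 20%. No paired analysis was possible because there is 1 group. Unknown depth limits every absence.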

Other observations

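Among the further channel subunits, lgc-47, which encodes a ligand-gated channel subunit related to the acetylcholine-gated chloride channels, had an exact palindrome beside a pooled summit. It is named because of that match, after its values were seen. The summit had signal 22.6, rank 11228, in an intron of lgc-47 502 bp past its start, and the match chrX:9807115-9807124 was centred 40.5 bp from it. Replicate 1 had a summit within 100 bp with signal 13.5, rank 11108, and replicate 2 had none. The stretch from summit to match, chrX:9807095-9807180 in ce11, plus strand, has the match in capitals.
lgc-47: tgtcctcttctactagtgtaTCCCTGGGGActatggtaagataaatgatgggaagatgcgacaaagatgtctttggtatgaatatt
The strongest pooled summit of the same locus was a different one, with signal 45.5, rank 1387, 771 bp past the start.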
